A study of Drosophila melanogaster with 3 samples.

Results

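Bdp1-GFP peaks inside introns, more than 2000 bp from any protein-coding 5' end, made up 493 of the 3206 peaks (15.4%) in the authors' optimal dm6 set. A peak was counted when it overlapped no window of 100 bp on either side of any annotated gene's 5' end, when its summit lay in a gene but in no exon, and when that summit was more than 2000 bp from the nearest 5' end of a protein-coding transcript. The rule uses position alone, so the signal of the peaks was not part of the choice. Chromatin immunoprecipitation and sequencing (ChIP-seq) was run on whole Drosophila melanogaster embryos of 0 to 24 h, males and females pooled, from a transgenic line that stably makes Bdp1 (CG9305) with GFP at its C-terminus. The labels name Bdp1 as the antibody target and describe an antibody to GFP, so the tagged protein was what was precipitated. All 3 samples are biological replicates of 1 group, sonicated to fragments of 200 to 800 bp. There is no untagged, mutant or treated group, and the only background is a control alignment used by the authors when they called peaks.

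Bdp1 works within TFIIIB, a complex that recruits RNA polymerase III (Pol III) to its promoters. The products of Pol III are short untranslated RNAs such as tRNA, 5S rRNA and U6 snRNA. In tRNA genes the promoter is read through the A box and B box inside the gene. Introns of fly developmental genes are long and are known to hold enhancers and alternative promoters. Embryos of these ages mix all tissues and stages. In such a mixture a peak present in few cells and a weak peak present in many cannot be told apart.

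Annotated Pol III genes served as a check of the label, and they carried the strongest peaks: their median relative signal was 8.14, 7.92 and 6.51 in replicates 1, 2 and 3. Relative signal here is the authors' peak signal divided by the median over the optimal peaks in the same replicate, so that 1 is an ordinary optimal peak. The deposited lists carry no read totals, so the depth behind a peak is unknown, and intervals below cover counting error over peaks only. The remaining optimal peaks were 487 proximal intron peaks (up to 2000 bp), 380 intergenic, 115 exonic, 1435 at protein-coding 5' ends, 60 at other 5' ends and 236 at Pol III genes.

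The sequences around the summits show what the strongest distal intron peaks look like. The first group gives 151 bases centred on the summit for 4 of the 10 peaks of highest mean rank. Capitals mark CAGTG or its reverse complement CACTG, a word examined later. Within the 151 bases shown the Tlk peak alone holds it. Within 100 bp of the summit, the window used later, the Raf and JIL-1 peaks hold it too. All sequences are the plus strand of the dm6 assembly, 5' to 3'.
Tlk, chrX:3742146-3742296: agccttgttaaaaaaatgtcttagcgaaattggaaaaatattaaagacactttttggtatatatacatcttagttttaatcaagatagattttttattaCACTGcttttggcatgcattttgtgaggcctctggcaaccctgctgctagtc
Raf, chrX:2297647-2297797: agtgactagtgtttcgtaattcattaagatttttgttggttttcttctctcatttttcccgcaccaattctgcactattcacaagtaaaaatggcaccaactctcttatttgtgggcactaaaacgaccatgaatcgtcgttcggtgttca
CG32486, chr3L:3060739-3060889: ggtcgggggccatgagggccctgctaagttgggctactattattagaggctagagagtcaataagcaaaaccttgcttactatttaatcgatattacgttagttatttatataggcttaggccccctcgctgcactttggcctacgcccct
JIL-1, chr3L:11084707-11084857: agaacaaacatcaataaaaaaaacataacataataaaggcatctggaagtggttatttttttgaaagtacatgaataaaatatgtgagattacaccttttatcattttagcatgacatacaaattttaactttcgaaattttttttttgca

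A longer stretch of 221 bases is given for 2 peaks that carry ACAGTG or ACACTG on both sides of the summit, each reading towards it. On the left the word appears as written, and on the right as its reverse complement. Capitals mark those words only. Both were chosen after their words had been seen and are among the highest-ranked peaks with the arrangement.
Gug, chr3L:8458231-8458451: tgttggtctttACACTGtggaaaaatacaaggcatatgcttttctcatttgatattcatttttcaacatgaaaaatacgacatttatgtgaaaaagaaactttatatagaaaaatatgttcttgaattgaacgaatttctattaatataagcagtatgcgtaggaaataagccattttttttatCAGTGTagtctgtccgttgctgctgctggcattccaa
CG32264, chr3L:3785107-3785327: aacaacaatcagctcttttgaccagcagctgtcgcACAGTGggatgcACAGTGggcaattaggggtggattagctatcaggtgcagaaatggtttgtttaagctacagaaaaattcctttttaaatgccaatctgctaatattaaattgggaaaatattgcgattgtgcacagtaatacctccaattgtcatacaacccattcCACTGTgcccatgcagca
In Gug the centres of the words lie 173 bp apart. The CG32264 peak has 2 copies on its left, and its outermost centres are 168 bp apart.

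The distal intron peaks were mostly of ordinary or low strength. Their median relative signal was 0.879 in replicate 1, 0.975 in replicate 2 and 0.796 in replicate 3, each over 487 peaks with a value. Other peaks outside Pol III genes had medians of 0.978, 0.955 and 1.000 in the same replicates. The distal intron peaks were therefore lower in replicates 1 and 3 and slightly higher in replicate 2. The log2 ratio averaged -0.15 ± 0.18 (SD, n = 3), with p = 0.5 in a two-sided exact sign-flip permutation test over replicates, where the smallest p that 3 replicates allow is 0.25. Against proximal intron peaks the ratio was negative in all 3 replicates and averaged -0.22 ± 0.12 on the log2 scale, with p = 0.25 in the same exact test. Intergenic peaks gave a log2 ratio of -0.05 ± 0.05 (exact p = 0.5). Against peaks at Pol III genes it was -3.09 ± 0.11 (exact p = 0.25).

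**Figure D1:**
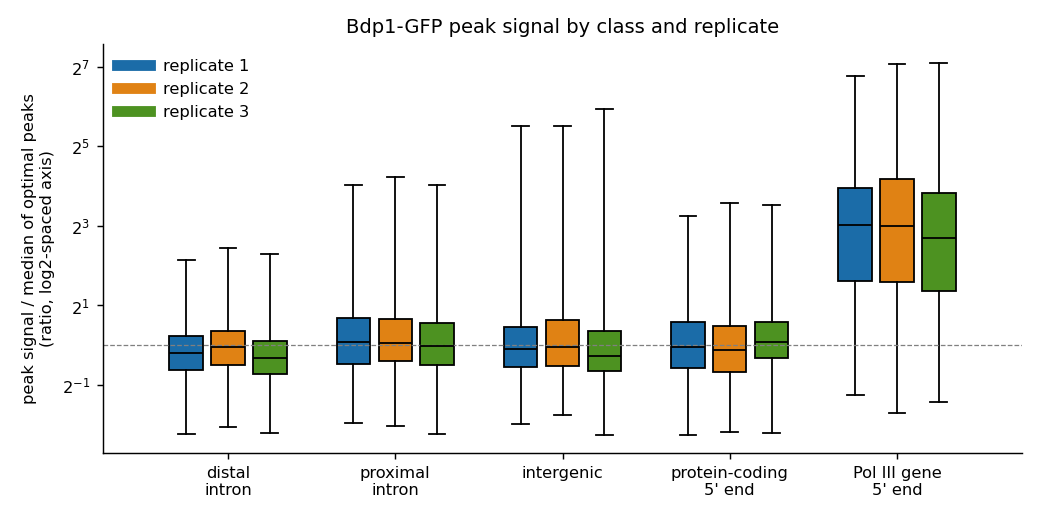
Relative peak signal (authors' signal divided by the median of the optimal peaks of that replicate, log2-spaced axis) for distal intron peaks and 4 other classes, with a box per replicate. Boxes span the quartiles around the median and whiskers reach the lowest and highest peak. The distal intron boxes sit around 1, with medians of 0.879, 0.975 and 0.796, and the Pol III boxes far above, at 8.14, 7.92 and 6.51.

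The range within the class was wide. In replicate 2 the lowest distal intron peak had a relative signal of 0.243 and the highest 5.44, and 42 of 487 exceeded 2. In replicate 1 the highest was 4.40, and in replicate 3 it was 4.94. None of the 493 was among the 100 strongest peaks of the pooled list, 22 were among the strongest 500 and 197 among the strongest 1603. All but 45 had the width of 396 bp that most optimal peaks share, and none was wider. Of the 20 highest by mean rank, 19 were among the 45 narrower ones.

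Support by replicates was below that of the optimal set as a whole. A peak was counted as found in a replicate when it overlapped, by at least 1 bp, a peak among the strongest 3206 of that replicate's relaxed list. Of the 493 distal intron peaks, 238 were found in all 3 replicates (48.3%, 95% exact Clopper-Pearson interval 43.8 to 52.8%), against 56.5% of all optimal peaks. A further 170 were found in 2 replicates, 79 in 1 and 6 in none. The share was 60.2% for proximal intron peaks (55.7 to 64.5%), 51.3% for intergenic peaks (46.2 to 56.4%) and 97.5% for peaks at Pol III genes. It was 53.4% for peaks at protein-coding 5' ends (50.8 to 56.1%) and 63.3% at other 5' ends. Exonic peaks were lower than distal intron peaks, at 42.6% (33.4 to 52.2%). By replicate, 74.6%, 83.4% and 71.8% of the distal intron peaks were found in replicates 1, 2 and 3. The optimal set was itself made from these replicates, so the shares describe the set and test nothing.

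The replicates ranked the distal intron peaks only loosely alike. Over the 476 distal intron peaks with a value in every replicate, Spearman's rho between replicates was 0.371 (replicates 1 and 2), 0.512 (1 and 3) and 0.530 (2 and 3). The same rho was 0.609, 0.686 and 0.669 over 460 proximal intron peaks, and 0.932, 0.937 and 0.964 over 231 peaks at Pol III genes, which also span a far wider range of signal. Peaks within a class share their libraries and are not independent replicates. For the median distal intron peak the highest replicate value was 1.68 times the lowest. The factor was largest at CG1677, with relative signals of 0.220, 1.63 and 0.288 in replicates 1 to 3, where replicate 2 stands alone. At apt, a tracheal and head regulator, the values were 1.71, 0.243 and 0.643. RapGAP1, a GTPase-activating protein for Rap1, had 0.215, 1.44 and 0.851.

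In the full relaxed lists, which mix binding sites with background, the class grew as peaks became weaker. Distal intron peaks were 0% of the 100 strongest peaks in every replicate and 5.33 ± 1.46% of ranks 101 to 500 (mean ± SD, n = 3). They were 12.6 ± 3.67% of ranks 501 to 1000 and 18.9 ± 1.62% of ranks 2001 to 3206. Among ranks 20001 to 30000 they reached 26.5 ± 1.90%. Eligible intron, the bases that could hold such a summit, is 32.0% of the 7 assembled chromosomes. The rise was shared by 2 other classes. From the strongest 3206 to the weakest 10000, intergenic peaks went from 12.1 ± 1.48% to 20.7 ± 2.39%. Exonic peaks went from 4.12 ± 1.64% to 31.8 ± 3.99%. Proximal intron peaks fell from 15.1 ± 0.587% to 9.64 ± 0.526%, and every class at 5' ends fell too. The strongest distal intron peak ranked 217 in replicate 1 and 185 in replicate 3, both times at Tlk, and 190 in replicate 2, at Raf.

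**Figure D2:**
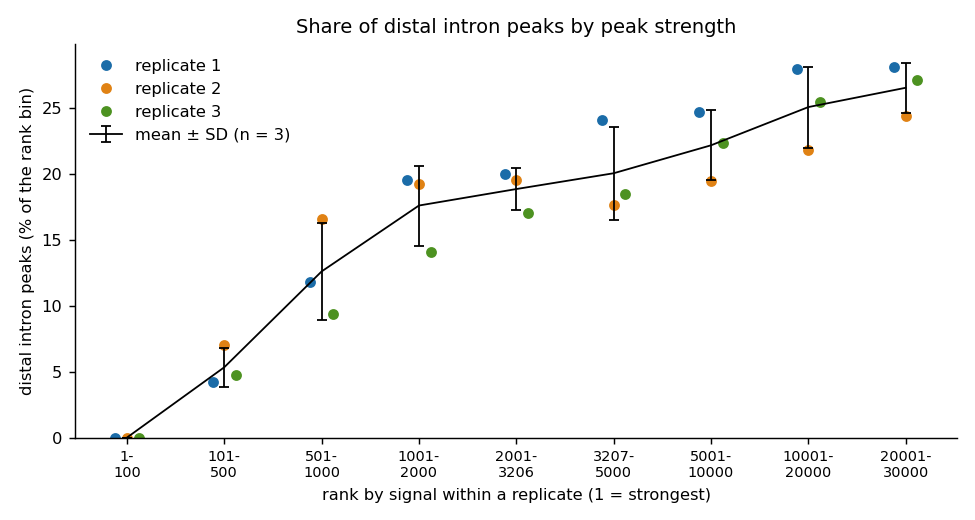
Share of distal intron peaks (percent, y axis) in bins of signal rank within each replicate's relaxed list (x axis, 1 is the strongest). Points are the 3 replicates, the line and bars their mean ± SD. The share is 0% in the first bin, 5.33% at ranks 101 to 500 and 26.5% in the last bin.

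Peaks were sparser in deep intron than over the genome as a whole, 5' ends included. The 493 summits fell in 44.1 Mb of eligible intron, or 11.2 per Mb (95% exact Poisson interval 10.2 to 12.2), against 23.3 optimal peaks per Mb over the 7 chromosomes, a ratio of 0.480. The genome figure includes the 1435, 60 and 236 peaks at protein-coding, other and Pol III 5' ends, which the rule leaves out of the 493. The ratio is therefore not a comparison with other sequence far from 5' ends. Counts by arm were 93 on 2L, 89 on 2R, 87 on 3L, 111 on 3R and 113 on X, with none on chromosome 4 or Y. The X chromosome had 13.7 per Mb of eligible intron (11.3 to 16.5) and the large autosome arms together 11.0 (9.96 to 12.2), intervals that overlap. Taken by distance from the nearest protein-coding 5' end, the density was 19.5 per Mb at 2000 to 3000 bp, 18.9 at 3000 to 5000 bp and 13.1 at 5000 to 10000 bp. It was 8.39 at 10000 to 20000 bp and 6.79 at 20000 to 50000 bp. Beyond 50000 bp there was a single peak in 5.82 Mb (0.172 per Mb). Proximal intron peaks ran at 30.5 to 45.6 per Mb over the bins from 200 to 2000 bp. The bins above 2000 bp other than the last held 41 to 142 peaks each.

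**Figure D3:**
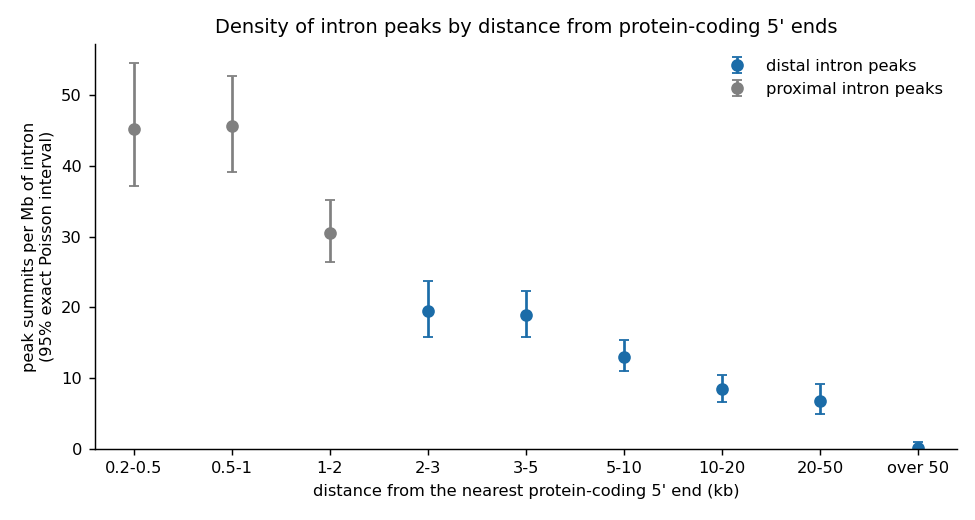
Intron peak summits per Mb of intron (y axis, bars are 95% exact Poisson intervals) by distance from the nearest protein-coding 5' end (x axis, kb). Proximal peaks are grey and distal peaks blue. The density is 19.5 per Mb at 2 to 3 kb and 6.79 at 20 to 50 kb, and a single peak lies beyond 50 kb.

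The first intron of the host gene held more of these peaks than its length gives. Introns were taken as the gaps between a gene's merged exons, numbered from its 5' end, over the 480 peaks with a protein-coding host. There were 185 peaks in a first intron (38.5%), where 21.3% of the eligible bases lie, which is 19.6 per Mb, and 295 in later introns, which is 8.45 per Mb. First introns had the higher density in each of 3 distance ranges. At 2000 to 5000 bp from a protein-coding 5' end, first introns had 23.4 per Mb (18.9 to 28.8) and later introns 16.0 (13.5 to 18.9), intervals that meet. At 5000 to 10000 bp the densities were 20.6 (15.7 to 26.6) in first introns and 9.59 (7.59 to 11.9) in later ones. Beyond 10000 bp they were 12.9 (9.01 to 17.99) in first introns and 4.32 (3.42 to 5.39) in later ones. The host introns were long, with a median of 13012 bp and a range of 169 to 121519 bp. The median distance to the nearest protein-coding 5' end was 5264 bp, and for 372 of 493 peaks that 5' end belonged to a gene around the peak.

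Across the 2000 bp limit the density was 19.5 per Mb at 2000 to 3000 bp (15.7 to 23.8), against 30.5 at 1000 to 2000 bp (26.4 to 35.2), intervals that do not overlap. The 3 peaks closest to the limit lay in lncRNA:CR44320 at 2012 bp, in hiw, an E3 ubiquitin ligase of the synapse, at 2015 bp and in RhoGAP18B at 2018 bp. Their mean relative signals were 1.94, 1.36 and 0.758. Just under the limit were peaks in CG43867 at 1995 bp, fru, the fruitless transcription factor, at 1993 bp and tara at 1986 bp, with mean relative signals of 1.08, 0.620 and 0.534. The farthest peak lay in Sema1a, an axon guidance semaphorin, 59449 bp from a protein-coding 5' end, with relative signals of 0.882, 0.516 and 0.760. In jing, a zinc finger gene, a peak at 44476 bp had 1.28, 1.25 and 0.659. In mamo, at 42303 bp, the values were 1.39, 0.687 and 0.947.

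Few of the peaks lay near anything that Pol III transcribes. The median distance to the nearest annotated Pol III gene was 385796 bp, and 2 peaks lay within 1000 bp of such a gene. The CG12535 peak was 313 bp from a tRNA-Gln gene, with relative signals of 0.948 and 1.19 in replicates 1 and 2 and no relaxed peak at its summit in replicate 3. The weaker of the EcR peaks, at 0.581, 0.648 and 0.629, was 998 bp from a tRNA-Asn gene. The stronger EcR peak, at 3.82, 4.46 and 4.69, also lay in that neighbourhood, 1272 bp from a tRNA-Asn gene. Whether the tRNA genes have a part in its signal was not tested. None of the 493 windows of 401 bp matched a Pol III gene over at least 30 bp in blastn at an E of at most 0.001. The 5' end of a non-coding gene, tRNA genes included, stood within 500 bp of 4 peaks, and 1 summit lay in an annotated transposable element.

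Among the 10 highest peaks by mean rank, 3 lay in kinase genes (Tlk, Raf and JIL-1) and 2 in genes of nuclear receptors (EcR and Hr3). Tlk, the Tousled-like kinase that acts in chromatin assembly, held the highest peak at chrX:3742064-3742378, with relative signals of 4.40, 5.12 and 4.94. EcR, the receptor for the steroid hormone ecdysone, had 3.82, 4.46 and 4.69 at chr2R:6151168-6151548, the peak 1272 bp from a tRNA-Asn gene. Raf, the kinase that links Ras to the MAP kinase cascade, had 2.80, 5.44 and 3.79 at chrX:2297589-2297849. Tlk stood above EcR in every replicate. Raf was the lowest of these 3 in replicates 1 and 3 and the highest in replicate 2, so its place is not fixed. CG32486 followed with 2.66, 4.27 and 3.45 at chr3L:3060689-3060921. Gug, the fly Atrophin corepressor, had 3.55, 3.09 and 2.76 at chr3L:8458206-8458473. CG12769 had 4.22, 2.62 and 2.84, with replicate 1 well above the others. JIL-1, a histone H3 kinase, had 2.63, 2.74 and 2.04. Hr3, an ecdysone-induced nuclear receptor, had 2.54, 2.01 and 2.85. CG32264 and lncRNA:CR44810 completed the 10 highest, with means of 2.49 ± 0.39 and 2.47 ± 0.42 (SD, n = 3). All 10 were among the strongest 3206 peaks of every replicate.

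Some genes held several peaks. The 480 peaks with a protein-coding host lay in 327 genes, of which 219 held 1 peak, 68 held 2, 23 held 3 and 17 held more. There were 140 peaks within 5000 bp of another peak of the class. The most were in sbb (scribbler, a corepressor), with 9 peaks, all in its first intron between 3.05 and 49.7 kb from its outermost 5' end. None of the 9 was strong, with mean relative signals of 0.634 to 1.29. Raf had 7, of which 6 stood in a row between 2.26 and 11.1 kb from its 5' end. The tara gene, whose product is a nuclear regulator of the cell cycle, held 6. Hr4, a nuclear receptor of the ecdysone response, held 5, and so did ush, a zinc finger partner of GATA factors. Eip75B, the E75 nuclear receptor, and Hr3 held 4 each, and the Hr3 peaks also lie inside CG12912. In Hr4 the peak 5.82 kb from the 5' end had relative signals of 2.49, 2.60 and 1.76, and the one 42.4 kb away had 0.705, 1.07 and 0.432.

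**Figure D4:**
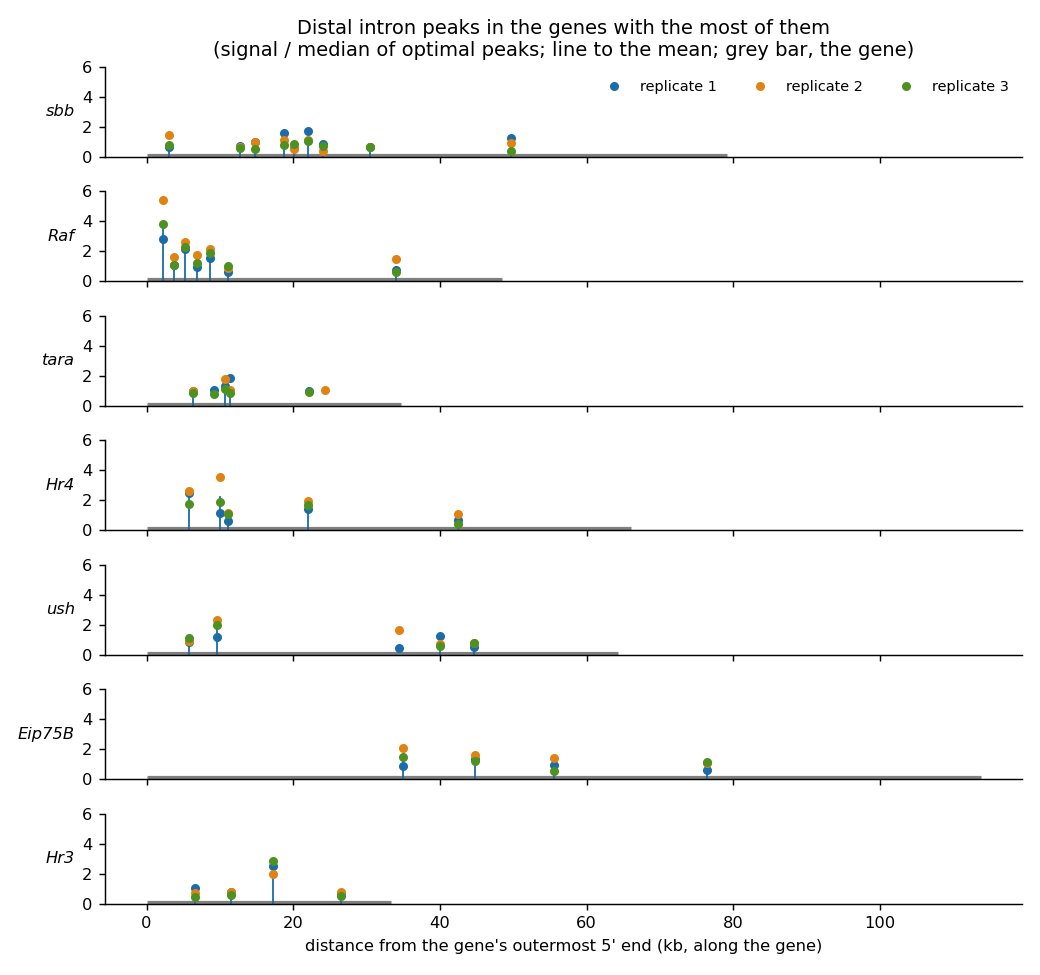
Relative signal (y axis) of each distal intron peak against its distance from the outermost 5' end of its gene (x axis, kb along the gene) for 7 of the 8 genes with the most peaks. The eighth, CG12912, holds the same peaks as Hr3. Points are replicates, the vertical line runs to their mean where all 3 have a value, and the grey bar is the gene. Raf has 6 of its 7 peaks within 11.1 kb of its 5' end, and sbb spreads 9 weaker ones over 3.05 to 49.7 kb.

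Of the 7 gene lists examined, ecdysone response and signalling genes had the largest shares of genes with a peak. Their genes also had more eligible intron, with medians of 21.0 kb (ecdysone) and 9.22 kb (signalling) against 1.60 kb over all genes. Over all 4351 protein-coding genes with eligible intron, 327 held at least 1 peak (7.52%). In the list of ecdysone response genes 7 of 21 did (33.3%, 95% exact Clopper-Pearson interval 14.6 to 57.0%), with 19 peaks, 30.1 per Mb of eligible intron, against 10.8 per Mb over all genes. They were the receptors EcR, Hr3, Hr4 and Eip75B, the transporter E23, the coactivator tai and ImpL2, a secreted insulin-binding protein. Apart from EcR and Hr3, the highest values were at Hr4 (given above) and ImpL2, with 2.09, 2.27 and 1.64. The median of the mean relative signals over the 19 peaks was 1.08, against 0.854 over all distal intron peaks, and 11 of the 19 were found in all 3 replicates.

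Signalling pathway genes held a peak in 19 of 62 cases (30.6%, 19.6 to 43.7%), with 32 peaks at 35.6 per Mb. Raf alone gave 7 of the 32. Besides Raf, aos, the secreted inhibitor of the EGF receptor, had 2.19, 2.68 and 2.15. This peak also lies within CG33158. A Wnt receptor gene, fz, had 1.64, 2.58 and 1.97 at 25256 bp from the nearest protein-coding 5' end. Mean relative signals were 1.92 at the higher of 2 peaks in mam, a Notch coactivator, 1.92 at the higher of 2 in aop, a repressor in the EGF receptor pathway, and 1.84 at the higher of 2 in the receptor gene N. The ligands vn, dpp and Wnt4 held 1 peak each, with means of 1.70, 0.907 and 0.814. The receptors ptc, InR and tkv had means of up to 1.04, 1.30 and 0.794. Of the 32 peaks, 20 were found in all 3 replicates.

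Chromatin and general transcription genes had little eligible intron, with a median of 1.03 kb per gene, and 6 of 37 held a peak (16.2%, 6.19 to 32.0%). Their 8 peaks gave 43.1 per Mb (18.6 to 84.8). The highest was in trx, which encodes a histone H3 methyltransferase, with 3.65, 1.81 and 2.01, replicate 1 standing above the others. Mi-2, a nucleosome remodeller, had 1.43, 2.16 and 2.28, and the peak also lies in Su(Tpl). A peak in grh, the epidermal transcription factor Grainy head, had 1.65, 1.55 and 1.34. The grh gene is also on the list of patterning factors, so this peak is counted in both lists. Psc, a Polycomb group protein, had 1.12, 1.20 and 0.904.

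Patterning transcription factors held 13 peaks in 10 of 66 genes (15.2%, 7.51 to 26.1%), at 10.5 per Mb. This is close to the 10.8 per Mb of all genes. After grh, the highest mean was 1.37 at sim, a regulator of the midline, with 1.34, 1.87 and 0.921. Mef2, a muscle regulator, had 0.670, 1.04 and 1.10, and Lim1 had 0.987, 0.831 and 0.861. The Hox gene Antp held 3 peaks and Ubx 1, with means of at most 0.830. The median of the mean relative signals over the 13 peaks was 0.712, against 0.854 over all distal intron peaks.

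Adhesion and axon guidance genes, with a median of 28.4 kb of eligible intron, held a peak in 10 of 81 cases (12.3%, 6.08 to 21.5%) but only 4.90 per Mb (2.80 to 7.96). In beat-Ib, an immunoglobulin-domain gene, the values were 2.87, 2.89 and 1.70. The kirre gene, which acts in myoblast fusion, held 4 peaks in 291033 bp of eligible intron, the highest with 1.87, 2.70 and 1.38. A peak in NetA, a netrin, had 1.11, 0.764 and 1.20. Muscle and cytoskeleton genes held 5 peaks in 3 of 39 genes (7.69%, 11.7 per Mb): 3 in the integrin gene mew, the highest with 1.05, 0.874 and 0.863, and 1 each in Fhos, a formin, and Msp300. Ion channel and synapse genes held 4 peaks in 3 of 70 genes (4.29%, 2.52 per Mb with an interval of 0.687 to 6.46). These were in dnc, a cyclic AMP phosphodiesterase, at 0.747, 1.25 and 0.643 and at 0.627, 0.691 and 0.583, in Ca-beta at 0.751, 0.878 and 0.577, and in Shal, a potassium channel, at 0.658, 0.762 and 0.533.

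The length of eligible intron moved with these counts. Among genes with 1001 to 5000 bp of it, 39 of 970 held a peak (4.02%, 17.5 peaks per Mb), and among genes with more than 50000 bp, 65 of 178 did (36.5%, 6.12 per Mb). Genes are not replicates, the lists differ in intron length, and no test of a list was made.

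The letters of Pol III promoters were rare at the summits. The B box letters GTTCGANTC, searched on both strands within 100 bp of the summit, occurred in 2 of 493 distal intron peaks (0.406%, 0.0492 to 1.46%), in 55 of 236 peaks at Pol III genes (23.3%) and in 0.304% of 986 windows placed 1000 bp to either side of the distal intron summits. They also occurred within 100 bp of the outermost 5' end in 0.651% of all 13968 protein-coding genes. The 2 peaks with the letters were in Hr3, at 1.04, 0.695 and 0.429, and in puc, a phosphatase of the JNK pathway, at 0.332, 1.04 and 0.511. The A box letters were found in 2 of 493 (0.406%), in 0.406% of the flanking windows and in 13 of 236 peaks at Pol III genes (5.51%). As written, these letters miss most peaks at Pol III genes, so their rarity in introns says little. TATAAA was present in 28.8% of the distal intron peaks, in 28.0% of peaks at Pol III genes, in 22.1% of the flanking windows and in 29.2% of protein-coding 5' ends. A run of 6 T occurred in 47.9% of the distal intron peaks, 30.9% of peaks at Pol III genes, 38.6% of flanks and 36.1% of protein-coding 5' ends. Other peak classes were nearer, with 44.3% of exonic, 43.1% of proximal intron and 42.4% of intergenic peaks. Peaks at protein-coding 5' ends had it in 42.2%.

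TATCGATA and GGTCACAC, letters of housekeeping promoters, were as rare. TATCGATA, the DNA replication-related element, was found in 2 of the 493 distal intron peaks (0.406%), against 8.29% of peaks at protein-coding 5' ends, 7.83% of all protein-coding 5' ends and 0.304% of flanks. GGTCACAC, the core of Motif 1, was found in 0 of 493, which allows a share of up to 0.745% by the same interval, against 6.13% of peaks at protein-coding 5' ends. Shorter letters were more frequent. CAGCTG, an E-box, occurred in 7.10% of distal intron peaks, 15.9% of peaks at protein-coding 5' ends and 7.91% of flanks. CGATA, the BEAF-32 letters, occurred in 21.5%, 42.0% and 19.7% of the same. GAGAGAG, the repeat bound by GAGA factor, occurred in 3.04% of distal intron peaks and 4.06% of flanks, and CAGGTAG, the Zelda heptamer, in 1.62% and 1.12%. These letters say nothing about whether a factor binds there.

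The summits sat in a trough of G+C. Within 25 bp of the distal intron summits the bases were 34.3% G+C, and the share was 35.1% at 26 to 50 bp, 40.7% at 76 to 100 bp, 43.5% at 126 to 150 bp and 44.5% at 201 to 225 bp. Intergenic peaks had nearly the same course, from 35.8% within 25 bp of the summit to 43.3% at 201 to 225 bp. Peaks at Pol III genes ran the other way, with 42.7% within 25 bp and 34.7% at 201 to 225 bp. The AT-rich centre is visible in the printed Gug sequence, while the JIL-1 stretch is AT-rich throughout. Not every peak has it: within 100 bp of its summit the CG32486 peak was 49.3% G+C.

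On the slopes of that trough stood a short word. CAGTG or CACTG occurred within 100 bp of the summit in 272 of 493 distal intron peaks (55.2%, 50.7 to 59.6%), in 29.5% of the flanking windows (26.7 to 32.5%), in 30.5% of peaks at Pol III genes and in 37.4% of all protein-coding 5' ends. Other peak classes were nearer, with 59.1% of exonic, 52.4% of proximal intron and 51.3% of intergenic peaks. Of peaks at protein-coding 5' ends 47.6% held it, so the word was not particular to distal intron peaks. It was picked after all words had been counted in these peaks and flanks, so the difference from the flanks is a description. The longer forms ACAGTG and ACACTG, also picked after their counts were seen, were most frequent from 50 to 125 bp from the summit. There they mostly read towards it. At 50 to 100 bp ACAGTG read inwards 70 times and outwards 15 times over the 493 peaks, and ACACTG 60 times and 17 times. At 200 to 250 bp the inward and outward counts were 17 and 12 for ACAGTG, and 10 and 12 for ACACTG. Inward words of both forms together numbered 35 at 25 to 50 bp, 70 at 50 to 75 bp and 60 at 75 to 100 bp. Farther out there were 52 at 100 to 125 bp and 27 at 125 to 150 bp. GAAAAA also read inwards more often, with 125 inward and 45 outward at 50 to 100 bp. Its lean was not limited to that distance, with 90 and 59 within 50 bp and 63 and 43 at 200 to 250 bp.

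**Figure D5:**
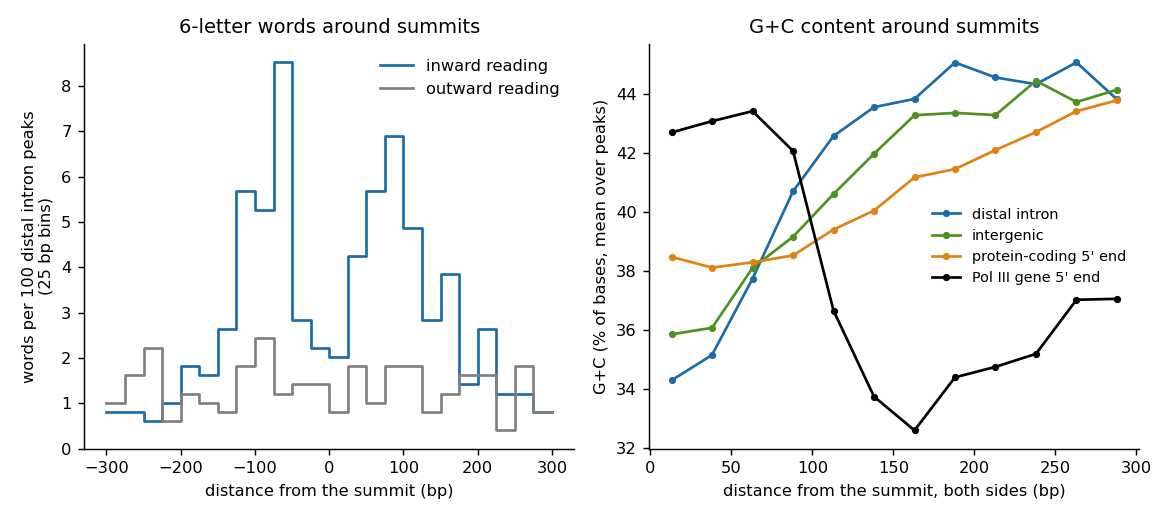
Left, ACAGTG and ACACTG per 100 distal intron peaks (y axis, 25 bp bins) by signed distance from the summit (x axis, bp), split by whether the word reads towards the summit or away from it. Right, mean G+C (percent) by distance from the summit for 4 peak classes. Inward words form a hump on each side of the summit and outward words none, and G+C at distal intron peaks is 34.3% at the centre and 44.5% at 201 to 225 bp.

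An inward ACAGTG or ACACTG at 50 to 100 bp was present in 106 of the 493 distal intron peaks (21.5%, 17.95 to 25.39%), and on both sides in 19. The share was 20.5% in proximal intron peaks, 17.4% in intergenic peaks, 20.9% in exonic peaks, 11.2% at protein-coding 5' ends (9.63 to 12.97%) and 0.424% at Pol III genes (1 of 236). The arrangement was thus not limited to deep introns. At the summits called in each replicate separately, ACAGTG at 50 to 100 bp read inwards and outwards 55 and 24 times in replicate 1, 64 and 18 times in replicate 2, and 47 and 15 times in replicate 3. Those counts are over 487 peaks in each replicate. The weakest 10000 of each relaxed list held far more distal intron peaks, 2808, 2441 and 2710. Over these the same counts were 54 and 58, 60 and 55, and 60 and 54. Inward ACAGTG thus stood at 1.92, 2.46 and 2.21 per 100 of the weak peaks. At the replicate summits of the 487 it stood at 11.3, 13.1 and 9.65 per 100. The word was picked after its counts in these same peaks were seen, and the replicate summits lie at the same loci. Both the recurrence and the difference from the weak peaks are therefore descriptions. The 106 peaks with the word were no stronger than the other 387, with median relative signals of 0.846, 0.981 and 0.799 against 0.882, 0.973 and 0.792. In all 3 replicates 47.2% of the 106 and 48.6% of the 387 were found. Soft-masked bases, which mark repeats and low complexity, were 18.7% of the summit windows with the word and 19.9% of those without.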

How the data were processed

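ChIP-seq peaks of Bdp1-GFP from 3 replicate embryo samples were read from the deposited narrowPeak lists on dm6: 1 relaxed list of 30000 peaks per replicate, called against a control alignment per the deposited text, and the optimal set from the irreproducible discovery rate procedure. The value used is the peak signal as the authors deposited it. The sources used here name no peak caller, aligner or threshold. Signals of separate lists have no stated common scale, so each was divided by the median of the optimal peaks in its replicate. A peak's replicate value is the highest relaxed peak that contains its summit. The dm3 lists were not used.

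Genes came from Ensembl release 115 (BDGP 6.54), with transposable elements ignored, and sequence from the NCBI assembly, whose chromosome lengths match dm6. The 7 gene lists, the motifs and the members themselves were chosen with earlier results of these data known. Genes named are the 10 peaks of highest mean rank, the 8 genes with the most peaks (ties in alphabetical order), the 3 farthest, the 3 on each side of the limit, the 4 highest per list, the 3 with the largest factor between replicates, and those with B box letters or a Pol III gene within 1000 bp. The remaining list members were named after their values were seen. Alternatives for distance, window, overlap, list size, replicates and repeats were run. Python 3.11.15, numpy 2.4.6, pandas 2.3.3, scipy 1.17.1, matplotlib 3.10.9 and blastn 2.17.0 were used, and the code was tested on simulated data. Replicate numbers come from the labels, which call them biological. They are 1 group, so a p-value concerns only whether the mean log2 ratio over these samples departs from no difference between peak classes.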

Additional observations from a re-analysis of the deposited data

How the results depend on the processing

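Of 55 alternatives over 11 results, 24 moved the value beyond the limits set for it and 31 did not. Only the log2 signal ratio was checked for a change of sign, and its sign did not change. The count of 493 was 687 from 1000 bp and 261 from 5000 bp, 464 with 5' ends of every gene class, 486 with windows of 500 bp, 493 with 1 summit per interval and 197 in the strongest 1603 peaks. Support in all 3 replicates was 18.1% with 1603 strongest peaks per replicate and 79.9% with 6412. Without replicate 1, 2 or 3, support in the other two ran from 57.0% to 61.9%, which asking for fewer lists raises by construction. The density ratio of 0.480 was 0.585 from 1000 bp, 0.351 from 5000 bp, 0.384 in the strongest 1603 peaks, 0.525 in replicate 2 alone and 0.401 in replicate 3 alone. The log2 signal ratio stayed between -0.242 and -0.0493 under every alternative, with exact permutation p of 0.25 to 1. Genes holding a peak were 6.68% from 1000 bp, 9.80% from 5000 bp and 3.77% in the strongest 1603. Windows of 50 and 200 bp gave 25.8% and 67.5% for the T run, 18.3% and 41.2% for TATAAA, and 23.9% and 72.4% for CAGTG, since a longer window holds more words. In the strongest 1603 peaks the T run was 40.6% and the B box letters 0%. The share with an inward word on a side was 17.2% at replicate 2 summits. The share of distal intron peaks in the strongest 3206 ran from 14.4% to 16.4% without 1 replicate. The alternatives on inward words and on leaving out replicates for the ranked share were chosen after seeing the data. The optimal set could not be remade without a replicate, so its counts have no such value. No paired analysis was possible because there is 1 group, and the signal ratios between peak classes were already taken within each replicate. Unknown depth limits what a missing peak in a replicate can mean.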
